A study of Mus musculus with 2 samples.

Results

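The proteasome genes of mouse megakaryocyte-erythroid progenitors (MEP) were described from total RNA sequencing. The genes were chosen by name: all protein-coding genes of the families Psma, Psmb, Psmc, Psmd, Psme, Psmf and Psmg, which encode the subunits of the proteasome, its activators and its assembly factors. This gave 49 genes of the 69691 features in the tables, which hold 21461 protein-coding nuclear genes. MEP are the bone marrow progenitors of red cells and of the megakaryocytes that shed platelets. They were primary cells, with no treatment or altered allele named, from male adult C57BL/6J mice aged 5 to 6 weeks. There was 1 group of 2 libraries, each made from 100 cells of RNA longer than 200 bases with spike-in RNAs added. The labels call the libraries biological replicates 1 and 2 and give them separate biosample records but the same donor record, so whether they came from separate animals is not known and part of the spread between them may be technical. With 1 group no test between conditions was possible, and all values describe these libraries.

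The proteasome degrades proteins that carry ubiquitin chains. Its 20S core is a barrel of alpha rings, which gate the entry, and beta rings, which hold the proteolytic sites; the 19S regulatory particle binds ubiquitin, unfolds the substrate with a ring of ATPases and feeds it into the core. In immune cells, and in many others after interferon, the catalytic beta subunits Psmb5, Psmb6 and Psmb7 are replaced in newly built cores by Psmb8, Psmb9 and Psmb10, which gives the immunoproteasome and changes the peptides offered to T cells. Red cell precursors also rely on the ubiquitin-proteasome system while they remodel their proteins and clear excess globin chains.

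The tables summed to 30016974 expected counts (estimated reads per gene, not always whole) in replicate 1 and 51510347 in replicate 2, of which the proteasome genes took 82150.58 and 175534.9. The 45 genes at 10 TPM or more in both libraries had 184 to 4468 expected counts in replicate 1 and 499 to 11835 in replicate 2. Levels are in the authors' TPM, a share of all transcripts corrected for length. The MEP label was checked against markers. All 12 erythroid markers listed reached 10 TPM in both libraries, and 1 of 8 megakaryocyte markers did (Itga2b); the platelet gene Pf4 had 0 counts in replicate 1 and 0.49 TPM in replicate 2. The libraries differed in genes of other blood cells. The summed level of 14 granulocyte and monocyte markers was 1928 and 8.67 TPM in replicates 1 and 2, where 8 of the 14 had 0 counts. That of 10 B cell markers was 10.4 and 156 TPM, with Vpreb1 at 0 counts in replicate 1. The sums for 10 T and NK cell markers were 64.1 and 43.4 TPM, and for 7 dendritic and antigen-presenting markers 19.1 and 12.4 TPM.

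The catalytic genes come in pairs of a constitutive subunit and its replacement. Their coding sequences are shown where each mature protein begins, because the first residue of the mature chain, a threonine, is the catalytic residue. Each line gives 54 coding bases from the glycine codon before it, with the threonine codon in capitals, read 5′ to 3′ on the gene's strand from the GENCODE transcript. In Psmb8 (GRCm38 chr17:34199299-34199352, plus strand) the stretch lies within exon 2. In the other 5 it spans an intron, which is left out. These are Psmb5 (chr14:54616792-54617817, minus strand), Psmb9 (chr17:34185747-34187252, minus strand), Psmb6 (chr11:70525493-70525935, plus strand), Psmb10 (chr8:105937568-105937708, minus strand) and Psmb7 (chr2:38642252-38643387, minus strand).
Psmb5: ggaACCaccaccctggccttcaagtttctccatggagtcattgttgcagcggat
Psmb8: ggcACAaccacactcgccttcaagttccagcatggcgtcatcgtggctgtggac
Psmb6: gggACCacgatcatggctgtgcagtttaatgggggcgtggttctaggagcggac
Psmb9: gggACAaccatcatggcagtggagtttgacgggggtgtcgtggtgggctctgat
Psmb7: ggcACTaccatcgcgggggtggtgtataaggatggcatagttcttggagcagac
Psmb10: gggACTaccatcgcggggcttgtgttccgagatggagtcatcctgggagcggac
Within a pair, 41 of the 54 bases were identical for Psmb5 and Psmb8, and 39 of 54 for each of the other pairs. Between genes of different pairs, 28 (Psmb8 and Psmb7) to 37 (Psmb6 and Psmb7) of the 54 were identical, so the stretch separates the pairs only narrowly. Over the aligned mature chains, identity was 70.6% for Psmb8 and Psmb5, 62.3% for Psmb9 and Psmb6, and 58.1% for Psmb10 and Psmb7, against 27.0% to 33.5% between genes of different pairs.

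MEP expressed nearly the whole family. At a minimum of 10 TPM in both libraries, 45 of the 49 genes (91.8%) were present, beside 24.7% of all protein-coding nuclear genes. The 4 genes below it were Psma8, Psmb11, Psmd10 and Psme2b. Together the 49 genes made up 3423 and 4140 TPM in replicates 1 and 2, which is 0.853% and 0.909% of the TPM of protein-coding nuclear genes. The order of levels was alike in the libraries, with a Spearman's rho of 0.960 over the 49 genes and 0.947 over 9982 protein-coding genes with a mean of at least 1 TPM, given as a description. The levels stood in tiers by role. The 20S rings stood highest, the 19S particle lower, and the immunoproteasome and assembly genes lower still.

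**Figure D1:**
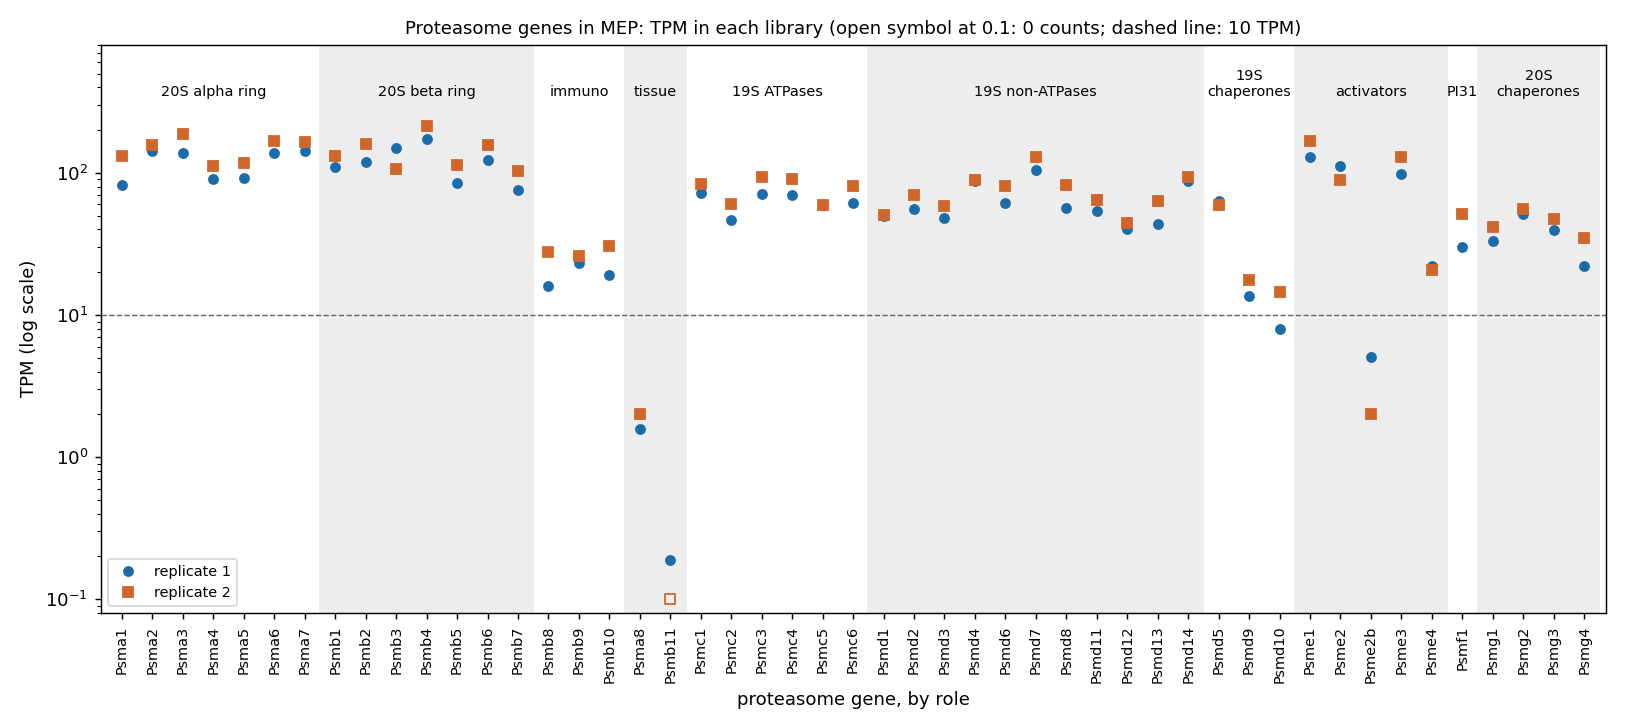
TPM (log scale) of each of the 49 proteasome genes in replicate 1 (circles) and replicate 2 (squares), grouped by role; the dashed line is 10 TPM and an open symbol at 0.1 stands for 0 counts. The 14 genes of the 20S rings lie between 75.6 and 215 TPM, the 3 immunoproteasome genes between 16.0 and 30.8 TPM, and 4 genes lie under the line in at least 1 library.

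The alpha ring is built from Psma1 to Psma7, which form the gated entry of the core. Its median was 139 and 157 TPM in replicates 1 and 2. Psma3 was at 139 and 188 TPM (mean 163 ± 34.8, SD, n = 2), the highest of the ring by mean. Psma7 followed at 143 and 166 TPM. The lowest were Psma4 at 90.6 and 112 TPM and Psma5 at 92.4 and 117 TPM. The highest mean was 1.61 times the lowest, so all 7 genes lay close together, and their order should be read with the gap between libraries in mind: Psma1 was at 81.8 and 131 TPM in replicates 1 and 2, a wider gap than that between the means of Psma1 (106 TPM) and Psma4 (101 TPM). Psma3 shares its sequence with an annotated processed pseudogene, Gm13835, identical over 662 of the 765 coding bases of Psma3, which carried 197 and 452 expected counts beside 2298 and 5380 for Psma3, so the split of reads between them is uncertain.

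Of the constitutive beta ring, Psmb1 to Psmb4 are structural and Psmb5, Psmb6 and Psmb7 carry the chymotrypsin-like, caspase-like and trypsin-like sites. The median of the 7 genes was 120.2 and 131 TPM in replicates 1 and 2. Psmb4 was the highest of all 49 genes, at 173 and 215 TPM (mean 194 ± 29.8). Psmb6 came second in the ring by mean, at 124 and 157 TPM. The lowest of the ring were Psmb7 at 75.6 and 104 TPM (mean 89.6 ± 19.8) and Psmb5 at 85.1 and 113 TPM (mean 99.1 ± 19.7). By mean, catalytic genes thus held the 2 lowest places of the ring, while the third, Psmb6, held the second highest, close to Psmb2 (means of 140.3 and 139.8 TPM). Psmb3 was the 1 gene of either ring with a lower level in replicate 2, at 149 and 107 TPM in replicates 1 and 2.

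The immunoproteasome genes were present in MEP at a fraction of their constitutive partners. Psmb8 was at 16.0 and 27.6 TPM in replicates 1 and 2. Psmb9 was at 23.3 and 25.9 TPM. Psmb10 was at 19.2 and 30.8 TPM. None of the 3 reached the level of any constitutive ring gene in either library. The ratio Psmb5 over Psmb8 was 5.33 in replicate 1, with a 95% exact (Clopper-Pearson) interval of 4.81 to 5.91, and 4.10 (3.85 to 4.37) in replicate 2. That of Psmb6 over Psmb9 was 5.32 (4.76 to 5.96) and 6.05 (5.56 to 6.58). That of Psmb7 over Psmb10 was 3.94 (3.55 to 4.37) and 3.37 (3.16 to 3.59). Such intervals hold only the error of counting, and reads copied from 1 molecule would make them too narrow. The constitutive gene was higher in all 3 pairs and both libraries, and as TPM Psmb10 stood closest to its partner. The intervals of the 2 libraries do not overlap for Psmb5 over Psmb8.

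**Figure D2:**
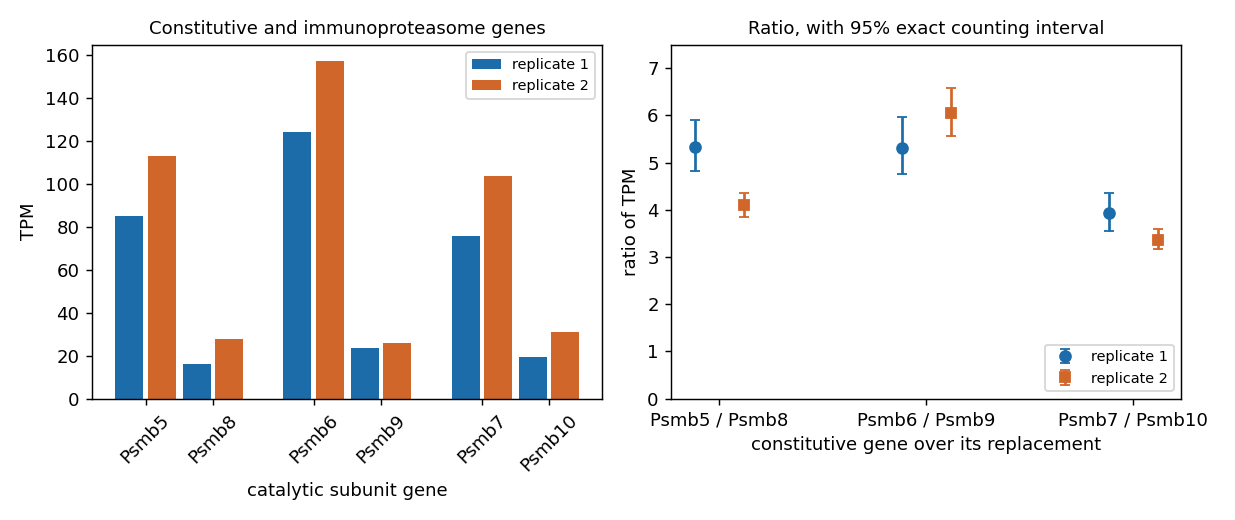
Left, TPM of the constitutive catalytic genes Psmb5, Psmb6 and Psmb7 and of their replacements Psmb8, Psmb9 and Psmb10 in each library; right, the ratio of TPM in each pair with its 95% exact interval, which covers counting error only. Each constitutive gene is above its replacement in both libraries, by 3.37 to 6.05 times.

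Summed over the pairs, Psmb8, Psmb9 and Psmb10 held 17.04% of the catalytic TPM in replicate 1 (58.5 TPM beside 285 TPM) and 18.4% in replicate 2 (84.3 TPM beside 373 TPM), a mean of 17.7% ± 0.969 (SD, n = 2). The share is one of RNA over the whole library, and a few cells with a high level cannot be told apart from a low level in all cells. The libraries also differed in the summed B cell and granulocyte markers given above, and the part of such cells in the immunoproteasome share was not tested. On counts not divided by length, the mean of the ratio Psmb5 over Psmb8 was 2.401 in place of 4.71, because the effective length of Psmb8 (1462 bases in replicate 1) is longer than that of Psmb5 (735 bases). On that scale Psmb7 over Psmb10 was 3.29, so Psmb8 was then the closest to its partner.

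The transcripts assigned to Psmb9 limit its value. Psmb9-202, an annotated coding transcript of 433 bases, held 63.2% of the gene's TPM in replicate 1 and 46.1% in replicate 2, and the longer Psmb9-204, the source of the sequence shown, held 7.63% and 20.99%. When counts were divided by the length of the longest coding transcript, Psmb6 over Psmb9 was 8.62 in place of a mean of 5.68. Psmb9 (chr17:34181987-34187764, minus strand) also overlaps Tap1 on the other strand by 212 bases, and whether the counting used strand is not given in the sources used here, so reads of that overlap cannot be told apart. Psmb8 (chr17:34197721-34201454, plus strand) lies 495 bases beyond Tap1 and 2072 bases before Tap2, in the class II region of the major histocompatibility complex; Psmb10 lies apart from them (chr8:105935735-105938444, minus strand). Psmb8-201 was the main transcript of Psmb8, with 94.6% and 68.5% of its TPM.

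The genes that carry antigen processing onwards, from a list of 14, were measured beside the immunoproteasome genes. In both libraries 10 of the 14 reached 10 TPM. B2m, the light chain of class I molecules, was at 625 and 682 TPM. Tap1, a subunit of the peptide transporter, was at 23.0 and 20.6 TPM. Nlrc5, the transactivator of class I genes, was at 13.1 and 15.4 TPM. These genes were thus detected together with Psmb8, Psmb9 and Psmb10. Irf1, an interferon-induced transcription factor, was at 1.27 and 2.07 TPM. Tap2, the other transporter subunit, was the 1 gene of the 13 compared past 2-fold between the libraries, at 37.1 and 12.2 TPM. Its expected counts were 901 and 1139, and the effective length the authors used was 1105 bases in replicate 1 and 2424 bases in replicate 2.

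The tissue-specific 20S genes were the lowest of the family by mean TPM, with Psme2b close to Psma8 in replicate 2 (2.01 and 2.02 TPM). Psma8, the alpha subunit of testis proteasomes, was at 1.58 and 2.02 TPM from 54 and 119 counts. Psmb11, the catalytic subunit of cortical thymic epithelium, was at 0.19 TPM from 17 counts in replicate 1 and had 0 counts in replicate 2, where a count of 0 allows up to 3 counts. Psmb11 was the 1 proteasome gene under 1 TPM in either library. It lies 3410 bases from Psmb5 on the opposite strand.

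The base of the 19S particle is a ring of ATPases, Psmc1 to Psmc6, which unfold substrates. Their median was 65.7 and 82.7 TPM in replicates 1 and 2. Psmc3 was at 70.7 and 93.8 TPM, and Psmc4 at 69.6 and 91.1 TPM, the highest by mean. Psmc2 was lowest, at 46.3 and 60.9 TPM, and Psmc5 next, at 59.9 and 59.3 TPM. The coefficient of variation (CV, SD over mean) across the 6 means was 16.6%, and 15.3% and 19.01% in replicates 1 and 2. As TPM this was below the CV of the other groups of the core and 19S particle, but as CPM, which is not divided by length, it was 14.01% and that of the alpha ring 9.34%.

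The 11 non-ATPase genes of the 19S particle hold the ubiquitin receptors, the scaffold and the deubiquitinase. Their median was 55.4 and 69.7 TPM in replicates 1 and 2. Psmd7, the partner of the deubiquitinase in the lid, was highest at 104 and 129 TPM (mean 116 ± 17.5). Psmd14, the deubiquitinase that removes chains before entry, was at 87.5 and 93.6 TPM. Lowest were Psmd12, a lid scaffold subunit, at 40.4 and 44.7 TPM, and Psmd1, the large base scaffold, at 49.9 and 50.6 TPM. Psmd7 lay above every ATPase gene in both libraries. Psmd4, a ubiquitin receptor at 88.0 and 89.2 TPM, was spread over several coding transcripts: Psmd4-202 held 46.0% and 36.0% of its TPM, Psmd4-206 held 36.3% and 28.5%, and Psmd4-201 held 7.86% and 21.2%.

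Core and regulatory genes stood apart in level per length but not in counts. The median of the 14 genes of the constitutive 20S core was 122 TPM in replicate 1, 2.04 times the 59.9 TPM of the 17 genes of the 19S particle. In replicate 2 the medians were 144 and 81.2 TPM, a ratio of 1.77. In each library 9 of the 14 core genes were above every 19S gene, while 14 of the 17 19S genes in replicate 1 and 16 of 17 in replicate 2 were below every core gene; Psmd7 was among the exceptions in both. In expected counts the ratio of medians was 1.16 in replicate 1 and 1.06 in replicate 2, with overlapping ranges. The 19S genes are longer: the median effective length was 1382 bases for them and 781 bases for the core genes in replicate 1.

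Across the 31 genes of both particles, effective length and TPM had a Spearman's rho of -0.856 in replicate 1 and -0.775 in replicate 2, and effective length and expected count had 0.0802 and 0.253. Over all 5308 protein-coding genes at 10 TPM in both libraries, rho between effective length and TPM was -0.333 and -0.412. These are descriptions across genes, which share a library and are not independent replicates. Within the particles the longer genes thus had the lower TPM but not fewer counts, and the part of length in the tier of the core over the 19S particle was not tested.

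**Figure D3:**
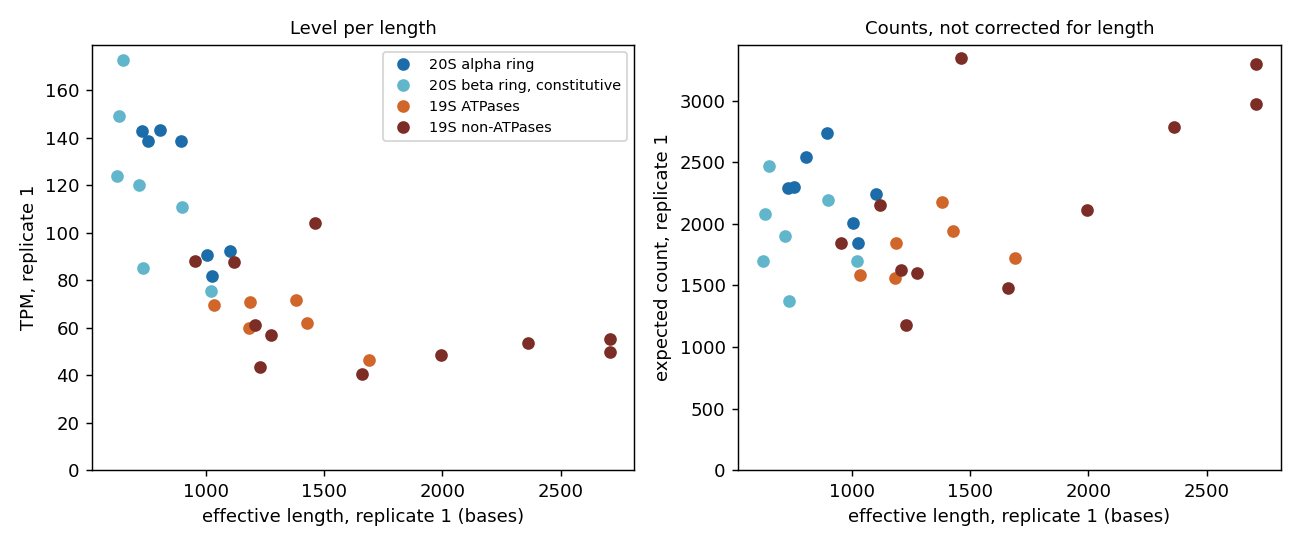
Effective length (bases) of the 31 genes of the 20S core and 19S particle in replicate 1 against TPM (left) and against expected count (right), coloured by role. The 20S genes lie at short lengths and high TPM, with 9 of 14 above every 19S gene, while the expected counts of core and 19S genes overlap.

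The spread within these complexes was set beside that of other complexes of several subunits. The CV of mean TPM was 20.8% in the alpha ring, 26.1% in the beta ring and 31.7% in the 19S non-ATPases. In the CCT chaperonin, which folds actin and tubulin, it was 38.3% over 8 genes, with means from 108 to 332 TPM and a median of 178 TPM. In the COP9 signalosome, a relative of the 19S lid, it was 49.3% over 10 genes, with means from 10.4 to 89.7 TPM and a median of 43.8 TPM. The COP9 list held both Cops7a and Cops7b, and Cops7b had its lowest mean. The immunoproteasome and tissue-specific genes were left out of the proteasome groups, so the sets are not alike. The CV of COP9 without Cops7b was not computed. As TPM and with these lists, the proteasome groups had the narrower spread in these libraries. The gap was small in replicate 2, where the CV was 31.5% in the non-ATPases and 34.2% in CCT (33.4% and 43.9% in replicate 1). The CVs also depend on the length used. With counts divided by the length of the longest coding transcript they were 37.7% for alpha, 24.3% for beta, 14.2% for ATPases and 38.6% for non-ATPases. CCT and COP9 were not recomputed in that way. No test of that difference was made.

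Activators bind the ends of the core in place of the 19S particle. Psme1 and Psme2 encode the subunits of PA28 alpha-beta, which interferon induces and which is known from antigen processing. Psme1 was at 129 and 168 TPM (mean 149 ± 27.4) and Psme2 at 112 and 89.8 TPM (mean 101 ± 15.4). Psme1 lay within the range of the 20S ring genes in both libraries and Psme2 in replicate 1, far above the immunoproteasome genes. Psme3, which encodes the nuclear PA28 gamma, was at 98.2 and 130.3 TPM and had the highest counts of the family, 4468 and 11835. Psme4, which encodes PA200, a large nuclear activator, was at 22.1 and 20.7 TPM. Psmf1, which encodes the core-binding regulator PI31, was at 29.9 and 51.2 TPM.

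Psme2b, an intronless copy of Psme2 on another chromosome, was at 5.04 and 2.01 TPM. Its 717 coding bases were identical to those of Psme2 at 712 positions (99.3%), with an identical run of 311 bases. The stretch that holds 3 of the differences is shown, coding positions 484 to 543 on the minus strand in both genes, with the differing bases in capitals. In Psme2 (GRCm38 chr14:55588049-55588246) it spans exons 8 and 9 of 11, and in Psme2b (chr11:48945576-48945635) it lies in the single exon.
Psme2: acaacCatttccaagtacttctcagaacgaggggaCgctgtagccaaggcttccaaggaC
Psme2b: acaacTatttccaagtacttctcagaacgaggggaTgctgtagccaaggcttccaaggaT
The expected counts were 1283 and 2232 for Psme2 and 77.6 and 52.0 for Psme2b. These are not whole numbers in the tables, so reads were shared between the copies by estimate, and the level of Psme2b in particular is uncertain.

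Assembly factors stood below the 19S particle by their medians. The 20S chaperones Psmg1 and Psmg2, which work as a pair on the alpha ring, were at 33.4 and 41.8 TPM and at 51.8 and 55.6 TPM. The second pair, Psmg3 and Psmg4, were at 39.4 and 47.5 TPM and at 22.2 and 34.8 TPM. Pomp, which matures the beta ring and is named outside the Psm families, was at 93.1 and 107 TPM, above all 4. Of the 19S chaperones, which guide the ATPase ring, Psmd5 stood at 63.6 and 59.3 TPM, within the range of the ATPases in replicate 1 and at its lower end in replicate 2. Psmd9 was at 13.7 and 17.6 TPM, and Psmd10, known as gankyrin, at 7.95 and 14.5 TPM. The 3 chaperones of 1 ring thus differed 5.47-fold between the highest and lowest mean.

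Partners outside the Psm families came from a list of 29 genes, of which 28 were found by symbol; 26 of these reached 10 TPM in both libraries. The ubiquitin receptor Adrm1 was at 59.6 and 67.4 TPM and Sem1, the smallest 19S subunit, at 39.8 and 51.6 TPM. The deubiquitinases of the 19S particle, Usp14 and Uchl5, were at 49.5 and 53.9 TPM and at 41.1 and 52.9 TPM. Proteasome-associated Txnl1 was at 75.7 and 81.7 TPM, Ecpas at 32.5 and 44.7 TPM, Fbxo7, the partner of PI31, at 28.1 and 40.0 TPM, and Akirin2, which brings proteasomes into the nucleus, at 15.8 and 17.7 TPM. All of these lay within or below the range of the 19S genes in both libraries. Upstream, the ubiquitin genes stood far higher, with Rps27a at 2202 and 2259 TPM and Ubb at 306 and 346 TPM. The activating enzyme Uba1 was at 112 and 114 TPM, and Vcp, the segregase that hands substrates on, at 101 and 87.3 TPM.

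Nfe2l1 encodes NRF1, the factor that restores proteasome genes when the proteasome is inhibited. It was at 22.1 and 10.4 TPM, the 1 gene of the 28 past 2-fold between the libraries. Its expected counts were 840 and 1535, a ratio of 0.921 after scaling for library size, and its effective length was 1731 bases in replicate 1 and 3829 in replicate 2. The related Nfe2l2 was at 56.5 and 59.96 TPM. The level per length of Nfe2l1 thus differed between the libraries more than its scaled count did.

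The known binding element of NRF1 in proteasome promoters is the antioxidant response element, and its core, TGACNNNGC, was counted on both strands in RefSeq promoters (GRCm38.p6, 250 bases before to 50 after the start). Of the 49 genes 41 had an entry. A gene counted once if any of its promoters held the motif. The motif was in 6 of these 41 (14.6%), beside 15.1% of 16317 protein-coding genes with an entry: Psmb5, Psmb6, Psmc6, Psmd9, Psmd12 and Psme4. The share was near that of all such genes. The sites of both catalytic genes are shown with the motif in capitals, on the gene's strand. That of Psmb5 (chr14:54618026-54618050, minus strand) begins 47 bases before the start and that of Psmb6 (chr11:70525340-70525364, plus strand) 9 bases before it.
Psmb5: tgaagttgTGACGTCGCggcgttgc
Psmb6: aaagagagTGACGGAGCgctttacg
CCAAT, the NF-Y box, was in 14 of the 41 (34.1%), beside 42.0% of all. GAAANNGAA, the core of the interferon-stimulated response element, was in 7 of the 41 (17.1%), beside 9.55% of all. These were Psmb3, Psmb4, Psmc2, Psmd4, Psmd9, Psme1 and Psmg4, with none of Psmb8, Psmb9 and Psmb10. The match of Psme1 (chr14:55578496-55578520, plus strand) lies on the opposite strand and begins 10 bases after the start.
Psme1: gctgtgctTTCGCTTTCccttcccg
A match describes the letters of the window, not binding.

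Between the libraries, 42 of the 49 genes had the higher TPM in replicate 2. Protein-coding genes in general were shifted the same way, with a median ratio of 1.144 over the 9982 with a mean of at least 1 TPM. The share of all genes with the higher TPM in replicate 2 was not computed, so the 42 are not read as a trait of the family. The median log2 difference of TPM + 1, replicate 2 minus replicate 1, was 0.31 over the 48 genes with a mean of at least 1 TPM and 0.18 over all 9982 such genes, and 35 of the 48 were above the latter. In such bulk libraries fewer cells of a type and less RNA per cell cannot be told apart. After centring on the median of all genes, 1 of the 48 (2.08%) was past 2-fold, beside 6.63% of all genes. It was Psme2b, whose share of reads is uncertain as described. The SD of the difference over the 45 genes at 10 TPM in both was 0.25 on the log2 scale, beside 0.35 over all 5308 genes at that level. Psmb3 and Psmd10 also passed at 1.5-fold, Psmb3 being lower (0.714 times, 95% exact interval 0.674 to 0.758) and Psmd10 higher (1.82 times, 1.57 to 2.13) in replicate 2 by the uncentred ratio of TPM. Among the largest of the others, Psmb8 was 1.73 times (1.56 to 1.91), Psmf1 1.71 times (1.61 to 1.83) and Psmb10 1.60 times (1.44 to 1.78) higher in replicate 2, while Psmb9 was 1.11 times (0.980 to 1.27). Replicate 2 was also the library with the higher sum of B cell markers and the lower sum of granulocyte markers, and their part in these differences was not tested.

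**Figure D4:**
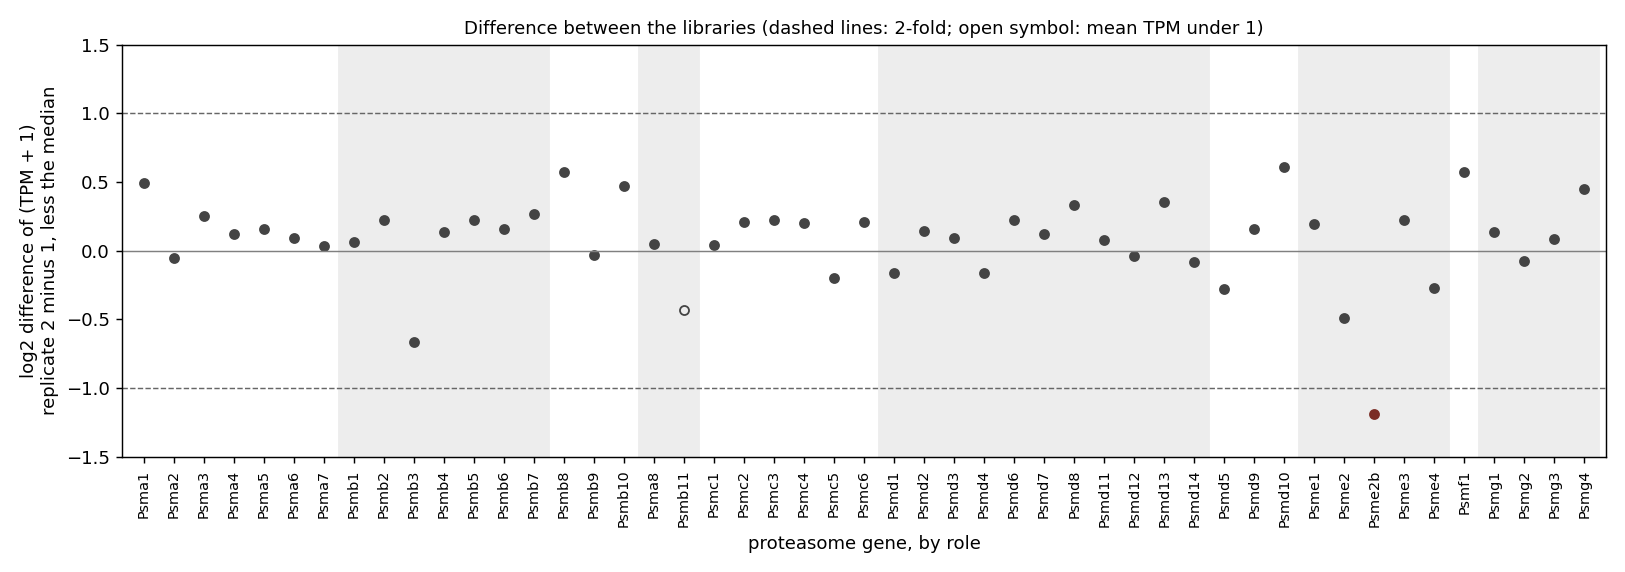
Log2 difference of TPM + 1 between the libraries (replicate 2 minus replicate 1, less the median of expressed protein-coding genes) for each of the 49 genes by role; dashed lines mark 2-fold and the open symbol is Psmb11, whose mean is under 1 TPM. Psme2b, at -1.19, is the 1 gene past the lines.

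Among the 38 genes with several annotated transcripts and a mean of at least 5 TPM, 32 (84.2%) had the same most abundant transcript in both libraries, beside 72.3% of 5838 such genes. Percentages per transcript are estimates from short reads. Coding transcripts held over 50% of the TPM in both libraries for 33 of the 38, with a median of 93.4% in replicate 1 and 91.5% in replicate 2. The same share over all genes was not computed, so whether 33 of 38 is unusual is not known. The 6 genes whose main transcript differed were Psmd5, Psmd13, Psme1, Psme2, Psmg3 and Psmg4. For Psmd5, Psmg3 and Psmg4 both candidates are coding. The annotated nonsense-mediated decay transcript Psme1-209 held 52.0% of Psme1 in replicate 1 and 30.6% in replicate 2, and the coding Psme1-208 38.9% and 51.6%. For Psme2, the retained-intron transcript Psme2-207 held 48.0% and 11.7%, and the coding Psme2-208 20.4% and 38.3%. Both PA28 alpha-beta genes thus had a non-coding transcript first in replicate 1 and a coding one in replicate 2. For Psmd13, a 123-base transcript with no match in the newer annotation held 0 and 38.2%, and the coding Psmd13-201 50.6% and 36.5%. The TPM of Psmd13 was 43.6 and 63.5, with counts of 1178 and 2215 and effective lengths of 1230 and 904 bases, so its TPM was 1.46 times and its count scaled for library size 0.948 times that of replicate 1.

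**Figure D5:**
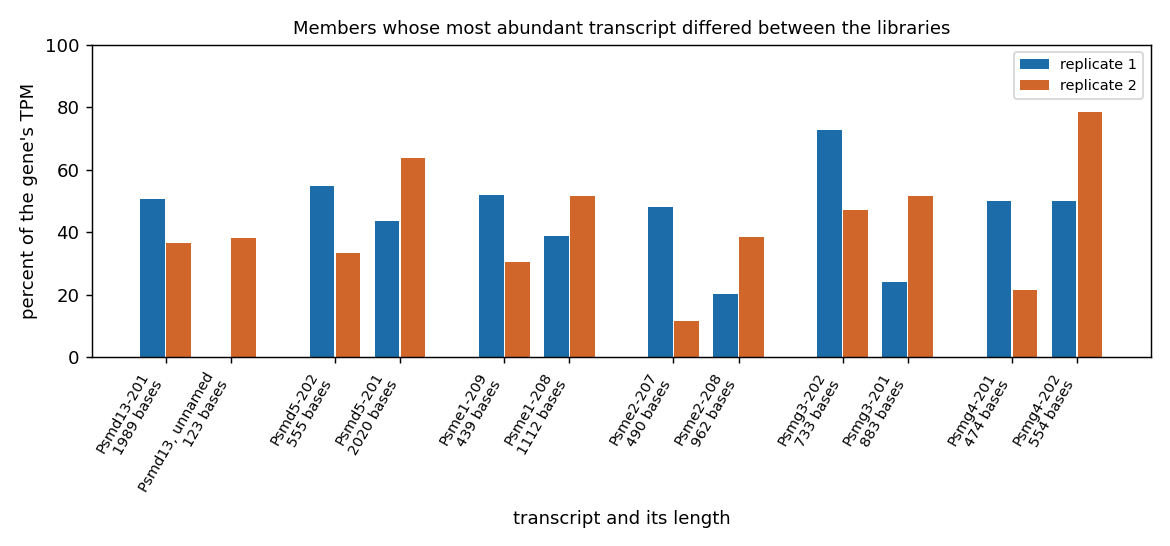
Percent of the gene's TPM held by the transcripts that were most abundant in either library, for the 6 proteasome genes where these differed, with transcript lengths in bases; bars are replicate 1 and replicate 2. Psme2-207 is at 48.0% in replicate 1 and 11.7% in replicate 2, and the 123-base transcript of Psmd13 is at 0 in replicate 1 and 38.2% in replicate 2.

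Coding transcripts were below 50% in at least 1 library for 5 of the 38 genes, again with no share over all genes computed. In Psmb4, the highest of the family, they held 47.6% and 52.0%, with retained-intron transcripts at 52.4% and 48.0%. In Psma3 they held 55.5% and 41.7%, with retained-intron transcripts at 21.7% in each. Psme1 (41.8% and 51.6%), Psme2 (42.3% and 76.2%) and Psmd13 (96.3% and 48.9%) were the others. For Psmd13, transcripts with no match in the newer annotation counted as not coding, among them the 123-base transcript with 38.2% in replicate 2. Levels given as TPM of a gene therefore include transcripts not annotated as coding, and for Psmb4 these made up about as much as the coding transcript.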

How the data were processed

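Total RNA of MEP was sequenced in 2 libraries of 100 cells. Quantification by the authors used mm10 and GENCODE M4, per the README deposited with the files. Aligner, quantifier and strand setting were not given in the sources used here. Expected counts, as deposited, are estimated reads per feature. The deposited TPM values were divided by effective length and brought to a constant total by the authors. The deposited percent columns give each transcript's share of its gene. The authors' FPKM values, score columns (posterior SD of counts) and signal columns (interval bounds) were not used.

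GENCODE M21 (GRCm38) gave names, biotypes and coordinates (42462 of 43346 annotated genes matched by identifier). The members and lists were chosen with earlier results of these data known. Named were the catalytic genes, the 2 highest and 2 lowest of each role, all members of small roles, members past 2-fold, under 1 TPM or with differing main transcripts, the first 10 companion genes and the highest 6 of the rest, and 6 antigen processing genes; some genes that this rule takes are not reported. Psma1, Psmb3, Psmd4, Nfe2l1 and the genes named for copies, retained introns or in the other observations were named after their values were seen. Differences were log2(TPM + 1), which understates changes of low genes, centred on protein-coding nuclear genes with a mean of at least 1 TPM. Ratio intervals are exact at 95% on rounded expected counts. Alternatives used rounded expected counts with TMM factors (edgeR 4.0.16) or DESeq2 1.42.0 size factors, under R 4.3.3. Copies were sought with blastn 2.17.0 (word size 11, identity of 90% or more); other steps used Python 3.11.15, pandas 2.3.3, scipy 1.17.1 and Biopython 1.88. The calculations were tested on simulated data.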

Additional observations from a re-analysis of the deposited data

Results flagged for a closer look

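Annotated pseudogene copies of proteasome genes, which are outside the 49 genes described, carried 284.21 expected counts in replicate 1 and 581.76 in replicate 2. They are listed because these are reads in features that no comparison used, above the 3 counts that a count of 0 allows. By sequence, 15 of the 49 genes had such a copy, 28 copies in all, of which 19 were analysed here and 8 had over 3 counts in either library. Gm13835, the copy of Psma3, took 197 and 452 of these counts. The 7 copies of Psmb3 were at 0 to 5.20 counts where analysed. Whether these reads came from the copies or from the genes themselves cannot be told apart in the estimated counts.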

How the results depend on the processing

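Of 116 recomputed values, 77 stayed within the spread between libraries (or within 1.5 times for counts), 39 moved and 0 reversed. Only ratios could be called reversed, by crossing 1, so a changed order of roles or pairs was not counted as a reversal. Ratios and shares within a library cannot change when TPM is rescaled, so those values stayed by construction. Rescaling TPM to protein-coding nuclear genes raised, by construction, the medians of all roles: to 350.7 TPM for alpha, 303 for beta, 57.5 for immunoproteasome, 174 for ATPases, 146 for non-ATPases, 36.3 for 19S chaperones, 238 for activators and 94.4 for 20S chaperones. CPM with TMM factors, which are not divided by length, gave medians of 84.0 for alpha, 66.4 for beta, 77.1 for non-ATPases, 28.2 for 19S chaperones, 71.7 for activators and 22.2 for 20S chaperones. They also gave an immunoproteasome share of 23.2%, Psmb5 over Psmb8 of 2.401, Psmb6 over Psmb9 of 5.09, 20S over 19S of 1.11, CVs of 9.34% for alpha, 20.3% for beta and 35.3% for non-ATPases, and 0 genes past 2-fold, where the pseudocount of 1 weighs on the low Psme2b. Counts per base of the longest coding transcript, a setting chosen after seeing the data, gave medians of 137 for alpha, 158 for beta, 74.9 for non-ATPases, 22.3 for 19S chaperones, 91.5 for activators and 47.5 for 20S chaperones. With it the immunoproteasome share was 16.4%, Psmb6 over Psmb9 was 8.62 and the CVs were 37.7%, 24.3% and 38.6% for alpha, beta and non-ATPases; the beta ring then stood above the alpha ring. A fold of 1.5 gave 3 genes, beside 20.1% of all genes, and the element with 1 more base was in 2 of the 41 genes with a promoter entry (4.88%, beside 3.19% of all such genes). The cause of the values moved by the longest-transcript setting was not tested. The CCAAT and interferon motifs were also added after seeing the data.

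Each library alone gave medians of 89.8 to 98.2 TPM for activators and CVs of 28.25% to 28.34% for beta and 31.5% to 33.4% for non-ATPases. On the mean TPM of each gene these were 100.7 TPM, 26.1% and 31.7%. Both libraries thus lay below that value for activators and above it for beta. Ratios and the immunoproteasome share were averaged over the 2 libraries. There each library is always less than 1 SD from the mean, so its value says little about stability. Differences between libraries and shared main transcripts could not be computed without one library. No paired analysis was possible because there was 1 group. Depth limits Psmb11, Psme2b and Psma8 most, with 0 to 119 counts.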

Other observations

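Psmd11, a scaffold subunit of the 19S lid, has an annotated copy that is not called a pseudogene, A730017L22Rik, which is 97.9% identical to its coding sequence over all 1266 bases. The copy carried 295 expected counts in replicate 1 and 370 in replicate 2, beside 2784 and 5834 for Psmd11. The 2 values of A730017L22Rik are whole numbers in the tables, while those of Psmd11 are not. A processed pseudogene, Gm14048, is also 97.9% identical to the coding sequence of Psmd11 over 1266 bases. It carried 16.87 and 9.41 expected counts, which are not whole numbers either. In Psmc4, a 19S ATPase, retained-intron transcripts held 45.6% of the TPM in replicate 1 and 22.0% in replicate 2. In Psmb6 they held 36.6% and 25.5%, in Psmf1 38.1% and 28.0%, and in Psmb9 29.1% and 33.0%. Of the companion genes, the stress-induced Zfand5 was at 19.3 and 31.7 TPM.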
